A study of Rattus norvegicus with 2 samples.

Results

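The group around miR-15, miR-16 and miR-107 is a set of miRNAs that carry the letters AGCAGC at or next to their 5′ end. Its members on the arrays were taken by name, as the 6 probes rno-miR-15b, rno-miR-16, rno-miR-195, rno-miR-497, rno-miR-103 and rno-miR-107 among 349 rat miRNA probes, with no passenger strands. The rule uses names and no measured value. The question was how bright each member was in the nucleus accumbens (NAc), which members made up most of the group's signal, and how the array from alcohol-treated rats compared with the array from vehicle-treated rats.

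The study used 18 male Sprague-Dawley rats of 150 to 180 g. Vehicle rats were injected i.p. with 500 µl saline and alcohol rats with alcohol at 1 g/kg, with 2 injections a day in both groups, and the NAc, core and shell together, was taken after 7 days. Alcohol was given by injection and not drunk by choice, which limits the group as a model of intake. Small RNA was labelled with Cy3 and hybridized to 1-colour arrays, with 1 array deposited for each group, and the text read here does not state how RNA of several rats was combined for an array. There is therefore no replicate check and no test of any difference between the groups. An SD given below is over the 9 repeat spots of a probe on an array and covers technical error within that array alone.

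A miRNA guides a silencing complex to messenger RNAs that pair with its seed, the bases 2 to 8 from the 5′ end, so miRNAs with the same seed can act on shared targets. The miR-15/16 branch is known for restraining cell cycle genes such as cyclins and the survival gene Bcl2, and miR-16 is also abundant in red blood cells. miR-103 and miR-107 lie in introns of pantothenate kinase genes, which encode the first enzyme of coenzyme A synthesis, and miR-107 and miR-103 are known to act on Dicer and Cdk6. In neurons, miR-16 is known for acting on the serotonin transporter, and miR-107 for acting on Bace1.

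The mature sequences are shown because the seed defines the group and because the rest of each sequence decides how far probes can be told apart. The target listed for each of the 6 probes was identical to a mature sequence of RefSeq (GRCr8), in 6 of 6 cases. The first 4 share the seed AGCAGCA, and the last 2 share GCAGCAU, the same letters moved by 1 base. Sequences are written 5′ to 3′ with the seed in capitals.
miR-15b: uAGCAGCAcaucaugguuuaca
miR-16: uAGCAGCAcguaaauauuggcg
miR-195: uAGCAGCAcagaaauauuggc
miR-497: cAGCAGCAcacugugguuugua
miR-103: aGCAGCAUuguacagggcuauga
miR-107: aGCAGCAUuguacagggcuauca

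Of the 349 listed targets, 8 (2.29%) held AGCAGC starting at base 1, 2 or 3 of the strand as listed. Besides the 6 members these were miR-322, with the seed AGCAGCA, and miR-503, with the seed AGCAGCG. Counted from 1 at the 5′ end, miR-103 and miR-107 differ by the single substitution G22C near the 3′ end, and 22 of 23 bases are identical (95.7%). miR-16 and miR-195 differ by G10A and U11G over 21 compared bases (90.5% identity), and miR-195 lacks the last base. miR-15b shares 63.6% of 22 positions with miR-16 and 72.7% with miR-497. Signal of such near-identical miRNAs on each other's probe was not measured on these arrays, so the values of miR-103 and miR-107, and those of miR-16 and miR-195, are uncertain to that extent.

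By GRCr8, the mature miR-15b lies at chr2:155555197-155555218 and miR-16 at chr2:155555343-155555364, both on the plus strand within Smc4, a gene for a condensin subunit. Their hairpins are 51 bases apart. miR-497 lies at chr10:55450172-55450193 and miR-195 at chr10:55450509-55450529, plus strand, with 255 bases between their hairpins and no overlapping gene of another kind in the annotation. miR-103 has 2 hairpin genes, Mir103a1 within Pank3 on chromosome 10 and Mir103a2 within Pank2, with the mature sequence at chr3:138963278-138963300 on the plus strand. miR-107 lies at chr1:241750431-241750453 on the minus strand within Pank1. One miR-103 probe therefore reads the product of 2 loci.

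Of the 6 members, 5 were detected on both arrays, and miR-497 was detected on the alcohol array alone. Detection asked for 5 or more of the 9 spots above a limit, set at 3 median absolute deviations over the middle value of the 88 control spots with mismatches, which came to raw densities of 278 (vehicle) and 179 (alcohol). The vehicle array had 151 detected miRNAs and the alcohol array 196, with 150 in common. The tissue label was checked on marker miRNAs. All 6 neuronal markers (miR-9, miR-124, miR-128, miR-132, miR-137 and miR-138) were detected on both arrays, with raw medians that summed to 116186 for vehicle and 98540 for alcohol. By raw median miR-9 was the brightest on both arrays. The summed normalized signal ran the other way, at 90996 for vehicle and 104703 for alcohol, and most of that rise was miR-9, at 18218 and 29945. The vehicle spots of miR-9 ran from 289.9 to 41432 in raw density and its log2 ratio had an SD of 2.57 over spots, so its normalized values are uncertain. In bulk tissue, fewer cells of a type and less RNA per cell cannot be told apart.

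In raw spot density, before background correction and normalization, miR-16, miR-103 and miR-107 were the bright members on both arrays. The miR-16 spots ran from 5005 over a median of 5736 to 6120 on the vehicle array and from 6803 over 7353 to 7530 on the alcohol array. The miR-103 spots ran from 5127 over a median of 5480 to 6159 on the vehicle array and from 6930 over 7598 to 7784 on the alcohol array. The miR-107 spots ran from 3747 over a median of 4344 to 4893 on the vehicle array and from 6593 over 7171 to 7350 on the alcohol array. For each of the 3, every alcohol spot was brighter than every vehicle spot, and the gap was widest for miR-107, whose dimmest alcohol spot exceeded its brightest vehicle spot by 1701.

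The other members were dimmer. The miR-195 spots ran from 898 over a median of 1058 to 1217 on the vehicle array and from 1902 over 2178 to 2430 on the alcohol array, again without overlap. The miR-15b spots ran from 389.7 over a median of 439 to 534 on the vehicle array and from 521 over 585 to 673 on the alcohol array, and the ranges overlapped by 12.4. The miR-497 spots ran from 256 over a median of 274 to 286 on the vehicle array and from 247 over 269.9 to 309 on the alcohol array, and these ranges overlapped. On the vehicle array only 3 of the 9 miR-497 spots passed the detection limit. Thus 4 of the 5 members detected on both arrays had every raw alcohol spot above every raw vehicle spot. That was the case for 79 of the 150 miRNAs detected on both arrays (52.7%), so the raw separation was common on these arrays.

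**Figure D1:**
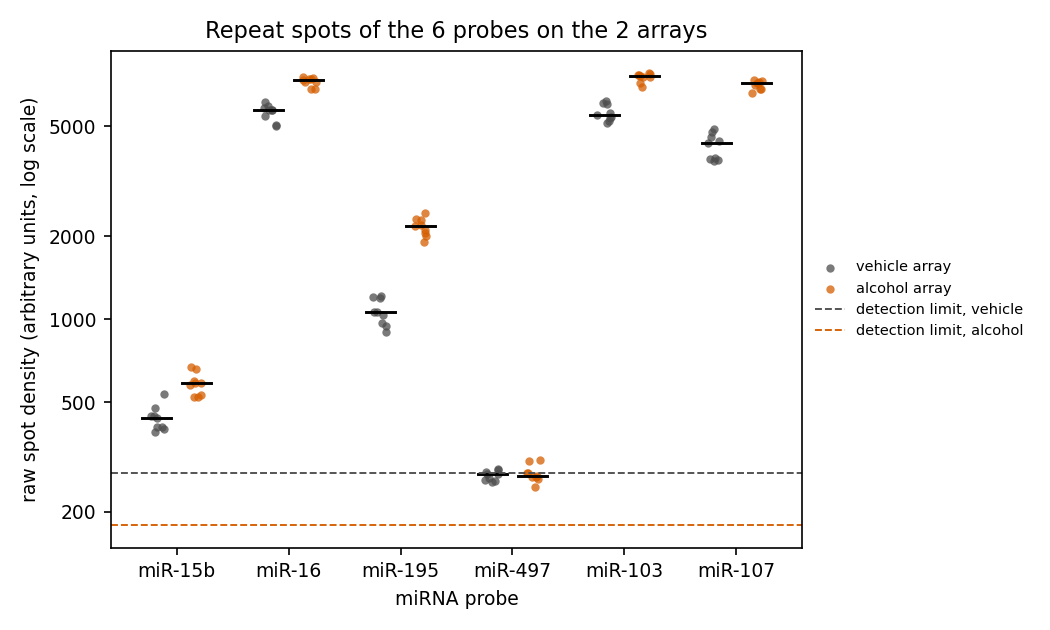
Raw spot density (log axis, arbitrary units) of the 9 repeat spots of each probe on the vehicle array (grey) and the alcohol array (orange), with black bars at the medians and dashed lines at each array's detection limit. miR-16, miR-103 and miR-107 lie between 3747 and 7784, miR-497 lies near the vehicle limit of 278, and the ranges of the 2 arrays overlap only for miR-15b and miR-497.

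The spots of miR-107 spread more than those of miR-16 and miR-103 on the vehicle array. The coefficient of variation over spots was 6.72% for miR-16, 6.98% for miR-103 and 10.8% for miR-107 on the vehicle array, and 3.75%, 3.85% and 3.68% on the alcohol array. For the 150 miRNAs detected on both arrays its median was 9.10% and 6.38%. Part of the vehicle spread lay between blocks of spots. On the vehicle array the median of the last 4 spots was below that of the first 5 for all 6 members, for instance 953 against 1192 for miR-195, 3793 against 4592 for miR-107 and 5279 against 6036 for miR-103. On the alcohol array the same medians were 2175 and 2178, 7016 and 7171, and 7535 and 7684.

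After normexp background correction and cyclic loess normalization between the arrays (the main setting), the summed signal of the 6 probes was 18479 for vehicle and 21648 for alcohol. miR-16, miR-103 and miR-107 together held 89.8% ± 0.60 of it for vehicle and 90.5% ± 0.58 for alcohol (SDs are over 9 spots). Brightness depends on the affinity of each probe as well as on the amount of miRNA, so these are shares of signal and not of molecules.

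Within the group, miR-16 held 32.6% ± 1.47 for vehicle and 30.3% ± 0.39 for alcohol. miR-103 held 32.3% ± 0.89 and 31.5% ± 0.65. The order of miR-16 and miR-103 was not separated on the vehicle array, where their shares differed by less than their spread over spots. miR-107 held 24.9% ± 1.22 for vehicle and 28.8% ± 0.18 for alcohol, a gain of 3.86 percentage points. Scaling by a constant leaves shares as they are without normalization, so the 4 such settings are not counted here. The gain of miR-107 was present in all 11 remaining settings and lay between 3.16 and 4.72 points in the 10 besides the main one, whereas the shares of miR-16 and miR-103 were lower on the alcohol array in all 11. The settings share the same 2 arrays and are not independent of each other.

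The remaining members held little of the signal. miR-195 held 6.83% ± 0.51 for vehicle and 7.10% ± 0.42 for alcohol, a change smaller than the spread over spots. Without normalization the share of miR-195 went from 5.67% to 8.53%, a gain of 2.87 points, and with quantile normalization it fell by 1.10 points. miR-15b held 2.44% ± 0.28 and 1.63% ± 0.16, and this loss turned into a gain of 0.22 points without normalization. miR-497 held 0.93% ± 0.05 and 0.81% ± 0.07, near background on the vehicle array. Its share was 0.31% on both arrays with the mismatched control baseline, and it rose from 0.34% to 0.51% in the authors' processed signals.

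**Figure D2:**
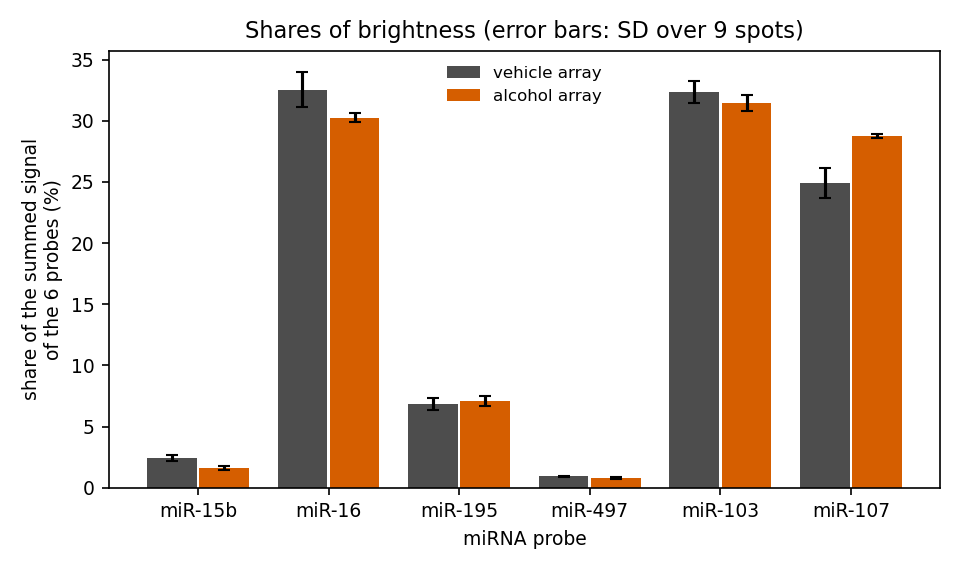
Share of the summed normalized signal of the 6 probes (percent) held by each probe on the vehicle array (grey) and the alcohol array (orange), with error bars for the SD over 9 spots. miR-16, miR-103 and miR-107 hold 89.8% and 90.5% together, and miR-107 goes from 24.9% to 28.8%.

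The comparison of alcohol with vehicle was made as a log2 ratio of normalized signal. A member counted as changed when it was detected on at least 1 array, reached a normalized signal of 400 on the brighter array and differed by 1.3-fold. By this rule miR-107 was the 1 member of 6 that was higher on the alcohol array, and 0 members were lower. Of the 125 miRNAs that met the detection and signal limits, 26.4% were higher and 20.8% lower, which is 9.46% and 7.45% of all 349 probes. The members met the limits in 5 of 6 cases, so 1 call among 5 was near the share for the whole array. Without normalization all 5 members past the limits were higher, in a setting where 66.4% of the miRNAs past the limits were. miR-497 did not meet the signal limit there.

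The normalized signal of miR-107 was 4600 for vehicle and 6226 for alcohol, a log2 ratio of 0.44 ± 0.15 (SD over 9 spots) or 1.35-fold. All 9 spots had a ratio above 0, from 0.22 to 0.65. Without normalization between the arrays its log2 ratio was 0.77, with quantile normalization and in the authors' processed signals it was 0.24 and 0.30, both under 1.3-fold, and with scaling to the median of detected miRNAs or to the 75th percentile it turned to -0.44 and -0.19. Relative to the median of the 150 miRNAs in common, miR-107 was higher by 0.51 in the main setting and by 0.20 to 0.50 in the 11 others that are no constant scaling.

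miR-103 went from 5977 to 6809 in normalized signal, a log2 ratio of 0.19 ± 0.09 with all 9 spots above 0. The ratio stayed under 1.3-fold in the main setting. It passed 1.3-fold upwards without normalization at 0.45, with the 5S rRNA probes at 0.75 and with the calibration spikes at 0.41, and downwards with median scaling at -0.77 and the 75th percentile at -0.52. The ratios of miR-107 and miR-103, which differ by 1 base, were thus set side by side on the same arrays. That of miR-107 was larger by 0.25 ± 0.06 (SE over spots) and was larger in all 12 settings besides the constant scalings, by 0.20 to 0.32. A constant scaling cancels in such a difference and tests nothing. Removing the GC trend, 1 of the 12, cancels here as well, since both targets have a GC content of 47.8%. The difference rests on 1 array per group.

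miR-16 went from 6016 to 6549 in normalized signal, a log2 ratio of 0.12 ± 0.10, with 8 of 9 spots above 0. This is about the size of its spread over spots. Its ratio lay between -0.83 with median scaling and 0.69 with scaling to the 5S rRNA probes. miR-107 exceeded miR-16 by 0.31 ± 0.06 (SE over spots), and by 0.24 to 0.40 over the same 12 settings. Since miR-16 is abundant in red blood cells, the blood cell markers were read as well. None of the 5 on the arrays (miR-451, miR-144, miR-142-3p, miR-142-5p and miR-223) was detected on either array. Their summed normalized signal was 488 for vehicle and 483 for alcohol, and miR-223 was the brightest of them with raw medians of 259 and 175. On the alcohol array 2 of the 9 miR-223 spots were above the limit. The part of blood cells in the signal of miR-16 was not tested.

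miR-195 went from 1262 to 1537 in normalized signal, a log2 ratio of 0.28 ± 0.18 with all 9 spots above 0, from 0.05 to 0.61. It did not reach 1.3-fold. Without normalization its log2 ratio was 1.16, the largest of the 6 in that setting, and with quantile normalization it was -0.17. Its ratio relative to miR-16, from which its target differs at 2 of 21 positions, was larger by 0.16 ± 0.07 (SE over spots) in the main setting and by 0.77 without normalization. The same difference was below 0 in 1 of the 12 settings, quantile normalization, at -0.15.

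The sign of the miR-15b ratio depended on how the arrays were brought to 1 scale. Its normalized signal was 450 for vehicle and 353 for alcohol, a log2 ratio of -0.35 ± 0.23, with 0 of 9 spots above 0, and vehicle over alcohol was 1.28-fold, just under the limit. Before normalization the same spots gave a log2 ratio of 0.73, or 1.66-fold higher on the alcohol array. It passed 1.3-fold downwards with the median of spots at -0.43, in the first 5 spots at -0.38, in the authors' processed signals at -0.72 and after removal of the GC trend at -0.58, and likewise with median scaling at -0.49. With the mismatched control baseline it was -0.46, also past 1.3-fold, but it was not counted there as it did not meet the signal limit. It passed upwards without normalization, with scaling to the 5S rRNA probes at 1.03 and with scaling to the calibration spikes at 0.70.

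By construction, cyclic loess takes a shift that varies with brightness out of each ratio. This changed the log2 ratio by -1.08 for miR-15b, -0.88 for miR-195, -0.50 for miR-497, -0.33 for miR-107, -0.27 for miR-16 and -0.26 for miR-103. Thus miR-15b and miR-16, whose hairpins are 51 bases apart, differed by -0.47 ± 0.08 (SE over spots, miR-15b minus miR-16) after cyclic loess and by 0.34 before it. The difference was above 0 in 1 of the 12 settings, the one without normalization. All the others of the 12 use a loess, quantile or cyclic normalization, so this count does not weigh the sign. The ratio of miR-15b was below that of miR-195 in all 12 settings, by 0.63 ± 0.10 (SE over spots) in the main setting.

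**Figure D3:**
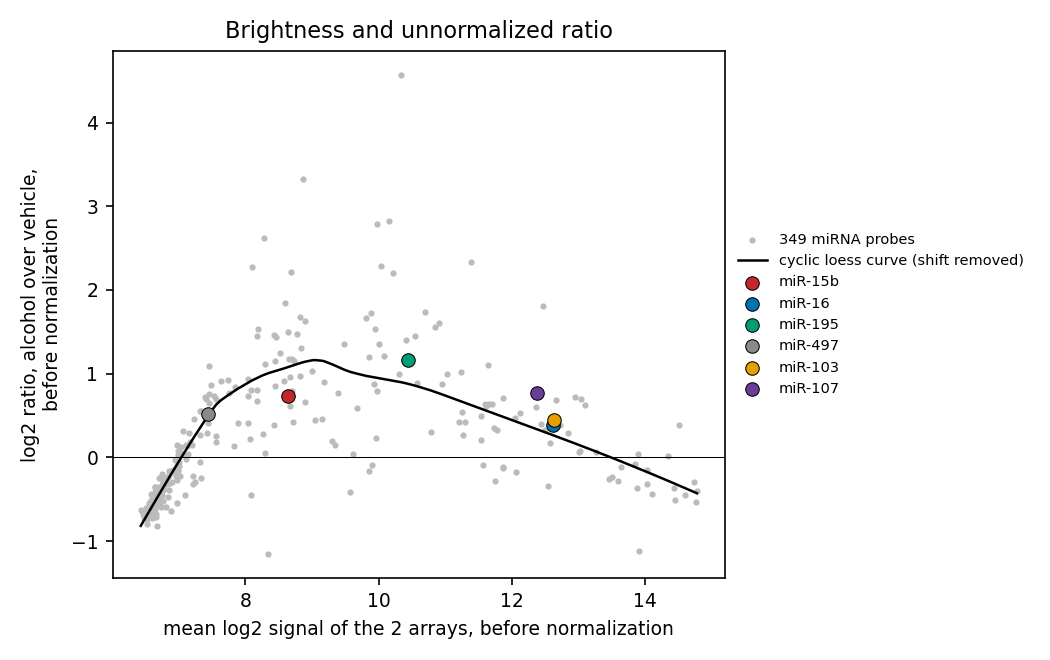
Log2 ratio of alcohol over vehicle before normalization against the mean log2 signal of the 2 arrays for 349 miRNA probes (light grey), with the 6 members in colour and the shift that cyclic loess removed as a black line. miR-107 (0.77) and miR-195 (1.16) lie above the line, miR-16 (0.39) and miR-103 (0.45) slightly above it, and miR-15b (0.73) below it, in the range where the line is highest.

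miR-497, the cluster partner of miR-195, had a normalized signal of 173 for vehicle and 174 for alcohol. As it was not well above background on the vehicle array, no fold is given for it, and these signals differed by less than the spread over spots.

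Over the 6 members the median log2 ratio was 0.16 in the main setting, beside 0.01 over all 349 probes and -0.07 over the 150 miRNAs in common. In the main setting 5 of the 6 ratios were above 0, without normalization all 6, and with median scaling 0. The median and these counts include miR-497, which was not detected on the vehicle array. The GC content of the targets was 40.9% for miR-15b, 42.9% for miR-195, 45.5% for miR-16, 47.8% for miR-103 and miR-107 and 50% for miR-497. Removing the GC trend of the detected miRNAs moved the ratio of miR-15b to -0.58, that of miR-195 to 0.11 and that of miR-16 to 0.04, while miR-107 was at 0.43 and miR-103 at 0.18.

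**Figure D4:**
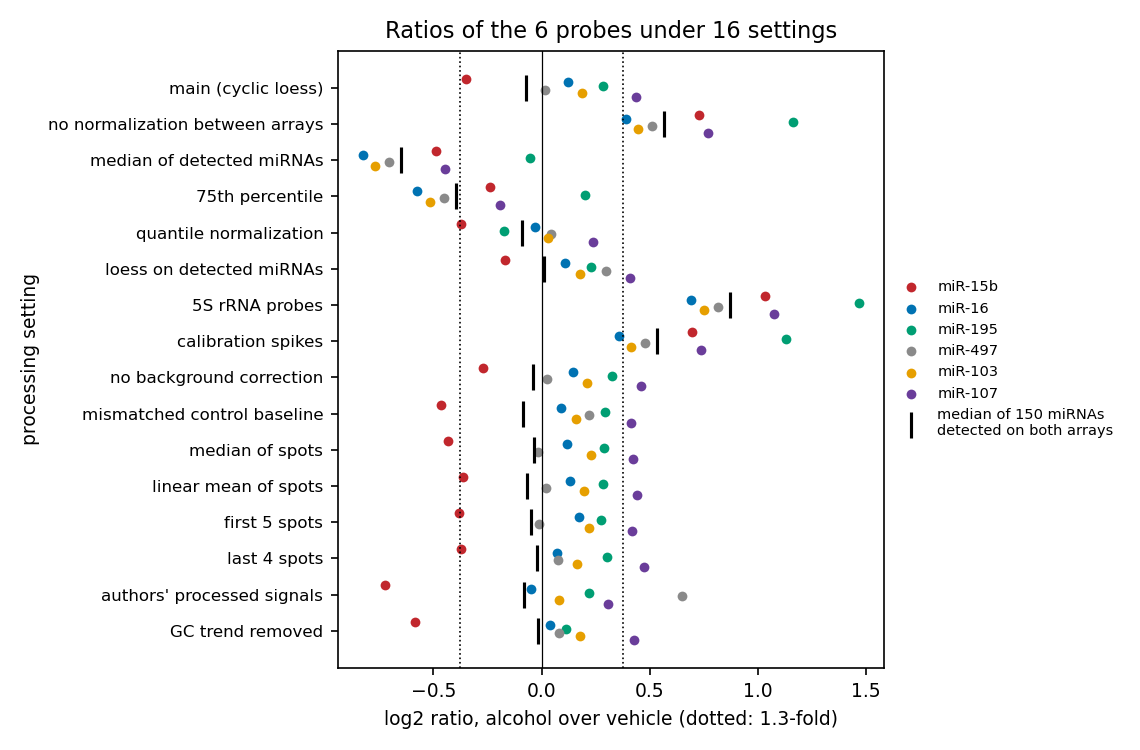
Log2 ratio of alcohol over vehicle for the 6 members (coloured points) under the main setting and 15 others, with a black bar at the median for the 150 miRNAs found on both arrays and dotted lines at 1.3-fold. The whole group moves with the scaling, from a median of -0.59 with median scaling to 0.92 with the 5S rRNA probes, while the distances between members stay fixed by construction under the 4 scalings by a constant. miR-107 lies to the right of miR-103 and miR-16 in the other 12.

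The other targets with AGCAGC at base 1, 2 or 3, miR-322 and miR-503, were near background on the vehicle array. Mature miR-322 and miR-503 are encoded on chromosome X with 220 bases between their hairpins, and both have been linked to cell cycle exit in muscle.
miR-322: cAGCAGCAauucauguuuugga
miR-503: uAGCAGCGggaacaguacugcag
miR-322 had 0 of 9 spots above the limit on the vehicle array and 9 of 9 on the alcohol array, with raw medians of 245 and 340. Its normalized signal was 144 for vehicle and 215 for alcohol. As it was not well above background on the vehicle array and the raw spots overlapped, from 237 to 263 for vehicle and from 234 to 432 for alcohol, no fold is given. It stayed under the signal limit of 400, so it was not counted among the changed miRNAs. miR-503 was detected on neither array, with raw medians of 241 and 154.5. The passenger strand miR-322* had raw medians of 254 and 204 and was detected on the alcohol array alone.

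The miRNAs closest to each member in normalized signal were found by distance over the 2 arrays on the log2 scale, among those detected on both. miR-16 and miR-103 were nearest to each other, at a distance of 0.06. The next for both was miR-126, an endothelial miRNA, with a log2 ratio of 0.16 ± 0.15. For miR-107 the nearest were miR-30d, with a log2 ratio of 0.26 ± 0.22, and miR-181a, with 0.08 ± 0.13. The choice uses both signals and thus the ratio, so it cannot set the ratio of miR-107 apart. For miR-195 they were miR-212, with 0.51 ± 0.28, and miR-98, with 0.09 ± 0.17. For miR-15b they were miR-674-3p, with -0.48 ± 0.25, and miR-376b-5p, with -0.30 ± 0.19. For miR-497 they were miR-34c*, with -0.08 ± 0.30, and miR-505, with -0.19 ± 0.19. With 2 arrays, such likeness covers a level and a ratio and nothing more.

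Markers of other cell types that NAc tissue can hold were read on the same arrays. Of 6 vessel markers, 3 passed detection for vehicle and 4 for alcohol, with summed normalized signals of 8836 and 10345 and miR-126 the brightest on both; miR-10a-5p and miR-199a-5p were detected on neither. The 3 detected on both arrays had log2 ratios above 0, at 0.16 for miR-126, 0.23 for miR-143 and 0.60 ± 0.28 for miR-145, a smooth muscle miRNA, while the median over all 6 was 0.07. The oligodendrocyte markers miR-219-5p and miR-338 were below the detection limit on the vehicle array and above it on the alcohol array, with summed signals of 321 and 693. The rise of that sum was miR-338, from 177 to 548, whereas miR-219-5p was at 144 and 145 and its raw median went from 255 to 223. Outside the list, miR-219-2-3p was detected on both arrays, with normalized signals of 2584 for vehicle and 2170 for alcohol. Its raw medians were 2142 and 2823, and miR-219-1-3p was detected on neither array. The 2 listed probes thus do not show that such miRNAs were absent from the vehicle array. Of 6 muscle and liver markers, 2 passed detection for vehicle and 1 for alcohol, with summed signals of 1251 and 646, and miR-122 was the brightest on both. The part of the vessel and oligodendrocyte markers in the ratios of the 6 members was not tested.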

How the data were processed

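Small RNA of the NAc was measured on 1 array for vehicle and 1 for alcohol. The authors deposited an intensity for each spot, which is its mean pixel density with the background left in, and also a processed signal intensity per probe, which they had put through a cyclic normalization (tool and settings not given in the sources used here). From the 3968 densities per array, background was corrected by limma (3.58.1, R 4.3.3) with normexp at an offset of 50, fitted on the foreground since it is the column used. Spot values of a probe were averaged as log2 over its 9 spots. Cyclic loess with a span of 0.7 and 3 iterations then brought both arrays to 1 scale over 349 miRNA probes. Other steps used Python 3.11.15. The SD of a ratio is over spots at the same position of both arrays, and the SE of a difference between probes treats their spots as separate. With 1 array per group there was no test. Precision is limited by this number of arrays.

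The rule for the members uses their names alone, but this group, the marker lists, detection rule, 1.3-fold threshold and 15 other settings were chosen with earlier results of these data known. The named miRNAs are the 6 members, the other targets with AGCAGC at base 1, 2 or 3, their passenger strands, the 2 nearest miRNAs per member and the marker lists, of which miR-486 was not on the arrays by that name. Besides these, miR-219-1-3p and miR-219-2-3p were read beside the oligodendrocyte list. The steps were tested on simulated arrays, in which only bright probes were changed, by 2-fold, and a shift rose steadily with brightness. The shift on the real arrays was largest at middling brightness. The simulation thus does not cover smaller changes or dim probes such as miR-15b. Sequences, positions and host genes are from RefSeq (GRCr8). The qRT-PCR, protein and behaviour experiments were not analysed here.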

Additional observations from a re-analysis of the deposited data

How the results depend on the processing

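No paired analysis was possible because vehicle and alcohol have 1 array each. The log2 ratio of miR-107, 0.44, was 0.77 without normalization, 0.24 with quantile normalization, 1.07 with the 5S rRNA probes and 0.74 with the calibration spikes, and it reversed to -0.44 with the median of the detected miRNAs and to -0.19 with the 75th percentile. In the other 9 settings it moved by less than its spread over spots. The median of the 6 members, 0.16, was 0.62, 0.00, 0.92, 0.59, -0.59 and -0.34 in these 6 settings, in the same order, and moved by less than its spread over spots in the other 9. These scalings also moved the median of all 349 probes, 0.01 in the main setting, to -0.22 without normalization, to -1.43 under the median, to -1.18 under the 75th percentile, 0.09 with 5S rRNA and -0.25 with spikes, and loess on detected miRNAs moved it to -0.13. The count of 1 higher member became 5 without normalization and with 5S rRNA, 4 with the spikes, and 0 with the median, the 75th percentile, quantile normalization, the authors' processed signals, 1.5-fold and 2-fold. The count of 0 lower members became 4 with the median, 2 with the 75th percentile, and 1, miR-15b, with the median of spots, the first 5 spots, the authors' processed signals and the removed GC trend. Of the miRNAs past the limits, 26.4% were higher and 20.8% lower in the main setting, and 66.4% were higher without normalization. Such shares were not taken in the other settings, so these counts do not set the members apart from the array. The joint share of miR-16, miR-103 and miR-107 on the vehicle array, 89.8%, was 91.6% without normalization and with each of the 4 constant scalings (median, 75th percentile, 5S rRNA, spikes), 89.1% with quantile normalization, 88.5% without background correction, 91.4% with the mismatched control baseline and 90.7% in the authors' signals. On the alcohol array, 90.5% became 88.5% without normalization and with the same 4 scalings, 89.2% without background correction and 91.7% with the mismatched control baseline. A constant scaling moves all miRNAs of an array alike by construction; the cause was not tested where a setting is no constant scaling. Signal near background limits miR-497, miR-322 and miR-503.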
